A study of Mus musculus with 2 samples.

Results

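The 69 genes described here encode the initiation, elongation and release factors of cytoplasmic protein synthesis and some of their regulators. They are the members of the Eif1 to Eif6, Eef1, Eef2 and Pabpc families plus Etf1, Gspt1, Eef2k, the Eif2ak kinases and the Eif4ebp inhibitors in a table of 16803 genes, selected with a rule on the gene symbol that uses no measured value. RNA had been sequenced from NE4C, an established line of mouse neural stem cells grown on poly-L-lysine. The control was the normal culture, and the treated culture received HTL, homocysteine thiolactone, a cyclic derivative of homocysteine that reacts with lysine residues of proteins. The labels give no dose and no duration for either library. Each condition had 1 library, so replicates cannot back any difference below, and the tests and intervals account for counting error between these 2 libraries alone.

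Translation of most mRNAs starts when the eIF4F complex binds the 5′ cap and a 40S ribosomal subunit, carrying eIF1, eIF1A, eIF3, eIF5 and the initiator tRNA held by eIF2, scans to a start codon. eIF1 keeps the scanning ribosome open and strict in its choice of codon, and eIF5 promotes hydrolysis of the GTP on eIF2 and commitment to the codon. eIF2B reloads eIF2 with GTP, and stress-activated kinases block that step by phosphorylating the alpha subunit of eIF2. eEF1 and eEF2 then elongate the chain, and the factors encoded by Etf1 and Gspt1 release it at the stop codon. These are background facts; only RNA was measured here, so neither the proteins nor their phosphorylation were read.

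The control library held 10350646 reads assigned to genes and the HTL treatment library 9102057. Of 8 neural stem cell markers, all were in the table with at least 1 read in each library, and their summed level was 197 FPKM (fragments scaled to transcript length and library size) in control and 130 FPKM after HTL, while Fabp7, a marker of radial glia, had 2 reads in each. Most of that difference lay in Vim (78.5 and 38.8 FPKM) and Sox2 (34.7 and 12.6 FPKM), and Nes (25.1 and 24.1 FPKM) and Msi1 (38.7 and 39.5 FPKM) were nearly level. The 6 neuronal markers summed to 22.9 and 29.6 FPKM, with Tubb3 at 16.3 and 24.8 FPKM, while Map2, Dcx, Snap25 and Syt1 were lower after HTL. Markers of astrocytes, oligodendrocytes, fibroblasts, endothelium and blood summed to between 0.47 and 4.40 FPKM in each list and library. The part of these marker differences in the results below was not tested. Fewer cells of a type and less RNA per cell cannot be told apart in such bulk samples.

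Reads were scaled to the library totals and compared with a two-sided exact binomial test with Benjamini-Hochberg adjustment over the 13442 genes whose reads in the 2 libraries summed to 10 or more. Calls required an adjusted p no higher than 0.001 together with a log2 ratio (HTL over control) of 1 or more in either direction, and a gene is said to have risen or fallen when it met the same p with a log2 ratio of 0.5 or more in that direction. All other differences are given as values.

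Translation factor transcripts took up 4.61% of the control reads (95% interval 4.60 to 4.62, exact Clopper-Pearson) and 4.90% of the HTL treatment reads (4.89 to 4.92). Without Eef1a1, the most abundant member, the shares were 3.21% (3.20 to 3.22) and 3.30% (3.29 to 3.31). The summed level therefore differed little, and the contrast between the libraries lay in single members. Of the 66 members tested, 2 were called higher (Eif1 and Eif1b, 3.03%) and 2 lower (Eif5 and Eif3j1, 3.03%), against 2.81% and 7.98% of all genes tested. At the smaller size 7 members had risen (10.6%) and 5 had fallen (7.58%), against 8.9% and 18.2% of all genes. With TMM scaling 9 had risen, adding Eef1b2 and Eif6, and with median of ratios scaling 10, adding Etf1 to these, against 13.1% and 13.4% of all genes, while 5 had fallen in each case, against 13.8% and 13.6%. The share of members that rose or were called higher was thus near the background, and the share lower was below it. The members' median log2 ratio was -0.04 and that of all genes tested -0.14. With TMM scaling (edgeR's trimmed mean of M-values), which moved the median of all genes to -0.01, 3 members were called higher and 2 lower, and the calls over all genes moved from 378 higher and 1072 lower to 553 higher and 798 lower. With TMM, median of ratios or upper quartile scaling, 10 members with values near 0 changed sign (Eif1a, Eif2ak4, Eif2b4, Eif2d, Eif3b, Eif3m, Eif4a1, Eif4g3, Eif5a and Eif5b), so no direction is read from them. When edgeR's exact test was given a biological coefficient of variation of 0.2, 0 members kept both cutoffs, beside 0.283% of all genes higher and 0.610% lower, and the smallest adjusted p was 0.00333 for Eif1.

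**Figure D1:**
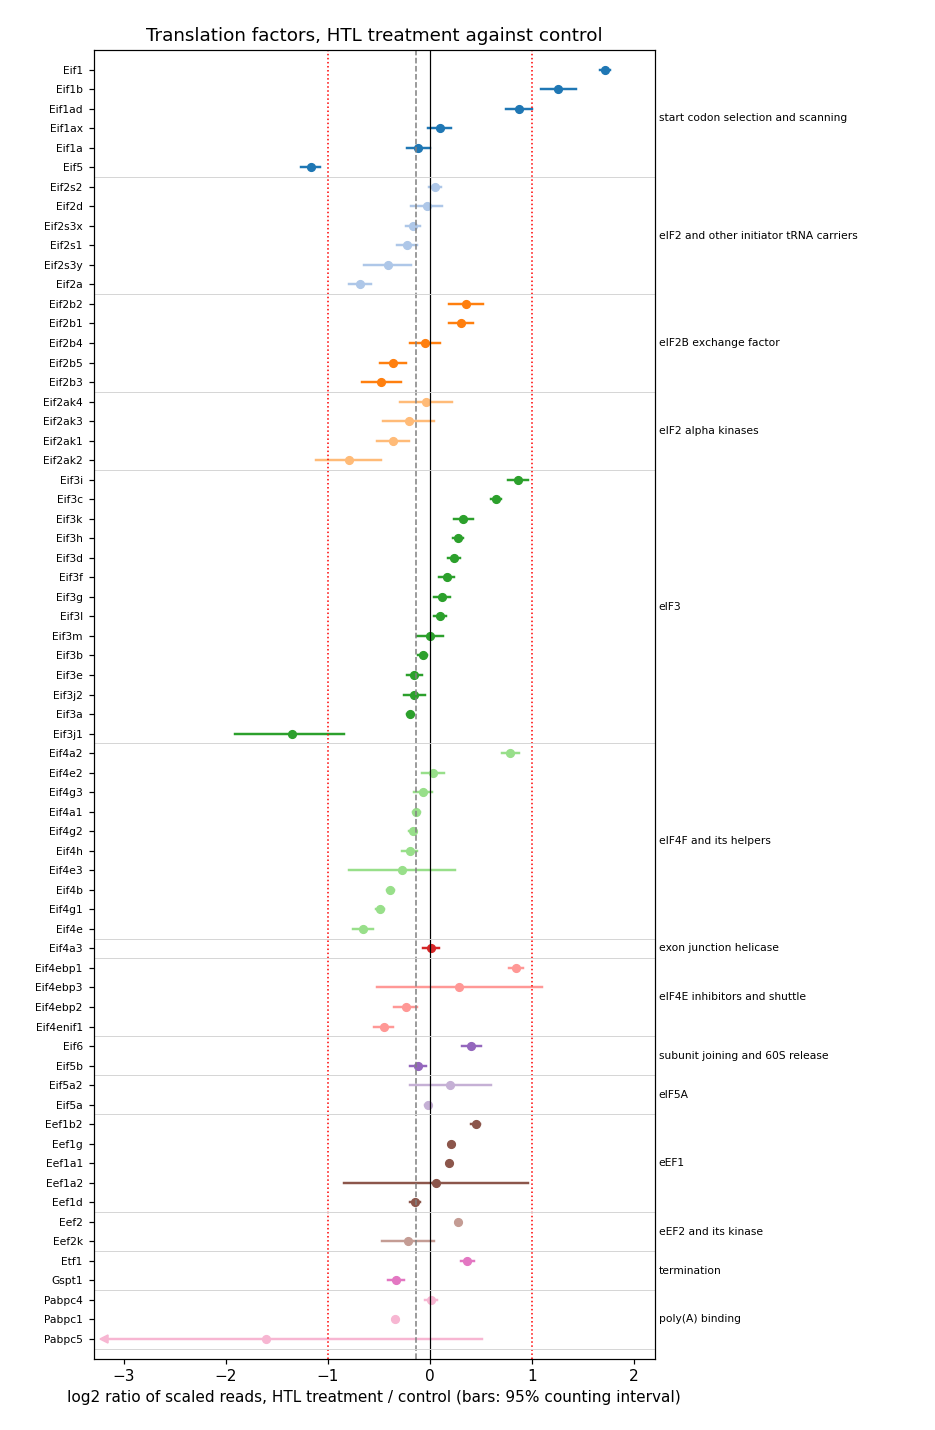
Log2 ratio of scaled reads (HTL treatment over control, x axis) for each of the 66 translation factor genes tested, grouped by role and coloured by group, with 95% counting intervals as bars (the arrow marks an interval that runs off the axis). The black line is at 0, the dashed line at the median of all genes tested (-0.14) and the dotted lines at the call limits of -1 and 1; Eif1 and Eif1b lie right of the upper limit, and Eif5 and Eif3j1 left of the lower.

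The start codon factors held 3 of the 4 calls. Eif1 (gene ID 20918; NCBIM37 chr11:100181199-100183410, plus strand), which encodes the factor that guards start codon choice, had 4593 reads in control and 13249 after HTL. Its level went from 351 to 1149 FPKM, a log2 ratio of 1.71 (95% interval 1.67 to 1.76). Eif1b (gene ID 68969; chr9:120401724-120404445, plus strand), which encodes a close relative of eIF1, had 399 and 839 reads and 43.0 and 103 FPKM, a log2 ratio of 1.26 (1.08 to 1.43). Both eIF1 genes thus stood higher in the HTL treatment library, and the pair summed gave a log2 ratio of 1.68 (1.64 to 1.73). Eif5 (gene ID 217869; chr12:112776312-112794270, plus strand), whose product acts on eIF2 at the start codon, went the other way, with 3325 and 1299 reads and 80.3 and 35.6 FPKM, a log2 ratio of -1.17 (-1.26 to -1.08). Within a library, Eif1 was 4.37 times as abundant as Eif5 per length in control and 32.3 times after HTL. The log2 change of that ratio of reads, which no scaling between libraries can move, was 2.88 (2.78 to 2.99); the pairs of genes compared in this way were chosen after their values had been seen.

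The other members of the scanning group varied in size and sign. Eif1ad, which encodes a nuclear protein with an eIF1A-like domain, rose from 848 to 1365 reads and from 33.1 to 60.5 FPKM, a log2 ratio of 0.87 (0.75 to 1.00), and it was called higher with TMM scaling (1.00). The eIF1A genes did not pass the test, with a log2 ratio of 0.09 (-0.02 to 0.21) for Eif1ax and -0.12 (-0.23 to -0.01) for Eif1a. Within a library Eif1 was 2.54 times as abundant as Eif1ax per length in control and 7.81 times after HTL. So the eIF1 genes and the eIF1A genes, whose products bind the 40S subunit side by side, stood differently between the libraries.

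Because eIF1, eIF1A and eIF5 act in start codon choice, the start codons of 4 mRNAs of this group are shown. The ATG is in capitals, with 10 bases before it and 4 after. They were read from the GENCODE M1 transcripts of NCBIM37, for Eif5 from the transcript whose length equals the one in the table (its 5 transcripts hold 2 different contexts).
Eif1: atcgtatcgtATGtccg
Eif1b: ctagtgtcgcATGtcca
Eif1ax: ctttgcggccATGccca
Eif5: ataagccaaaATGtctg
In the consensus context a purine lies 3 bases before the ATG and a G directly after it. Of 44891 annotated coding transcripts, 82.1% had the purine, 48.3% the G and 9.44% neither. Eif1 and Eif1b, both called higher, had neither, whereas Eif1ax and Eif5 had the purine without the G. The Eif1 start codon is known for its poor context, through which eIF1 limits its own synthesis; the RNA levels here do not bear on that step.

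**Figure D2:**
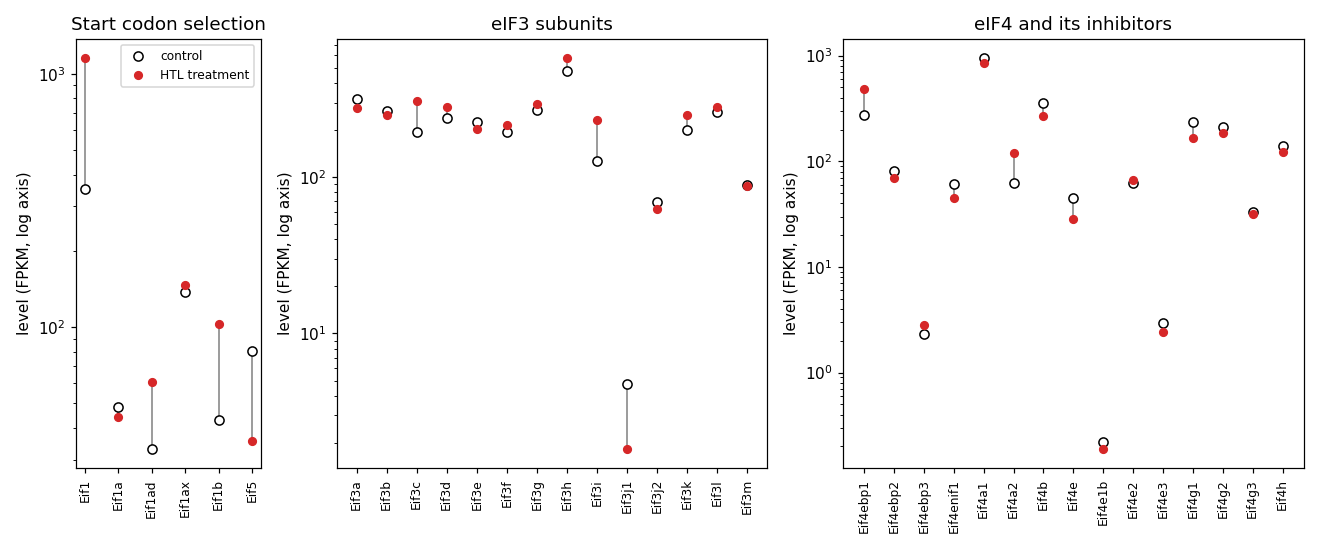
Level in FPKM (log axes, a separate scale in each panel) of the start codon factors, the eIF3 subunits and the eIF4 factors with their inhibitors, with an open point for the control library and a filled point for the HTL treatment library. Eif1 goes from 351 to 1149 FPKM and Eif5 from 80.3 to 35.6, while the eIF3 subunits other than the Eif3j pair lie between 88.2 and 574 FPKM and Eif3j1 lies far below the others at 4.76 and 1.83.

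Members of the ternary complex differed less. The eIF2 subunit genes Eif2s1, Eif2s2 and Eif2s3x had log2 ratios of -0.23, 0.05 and -0.17, and Eif2s2, the most abundant of them, stood at 177 and 183 FPKM. The Y-linked copy of the gamma subunit, Eif2s3y, had 401 and 264 reads, with a log2 ratio of -0.42 (-0.65 to -0.19). Eif2a, which encodes an alternative carrier of initiator tRNA and not the alpha subunit of eIF2, was the member of this group that fell, from 1929 to 1056 reads and from 80.1 to 49.8 FPKM, a log2 ratio of -0.68 (-0.79 to -0.57). Its exons overlap those of Serp1 on the opposite strand, and the use of strand in counting is not given in the sources used here. Eif2d, whose product can also deliver initiator tRNA, had a log2 ratio of -0.03.

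The genes of eIF2B, a complex with equal numbers of each subunit, split by direction without any that rose or fell by the limit of 0.5. Eif2b1 and Eif2b2 had log2 ratios of 0.30 (0.18 to 0.42) and 0.35 (0.18 to 0.51). Eif2b3 and Eif2b5, the latter encoding the catalytic subunit, had -0.48 (-0.67 to -0.29) and -0.36 (-0.50 to -0.24), and Eif2b4 had -0.05. In control the 5 levels lay between 34.6 and 50.9 FPKM, and after HTL between 24.4 and 62.7 FPKM. The ratio of Eif2b2 to Eif2b5 per length went from 0.771 to 1.26, so the levels of the 5 subunits lay further apart in the HTL treatment library.

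The 4 eIF2 alpha kinases had log2 ratios below 0, as did 7893 of the 13442 genes tested. With library totals the difference passed the p limit for 2, beside 38.6% of all genes. Eif2ak2 (PKR, which senses double-stranded RNA) fell from 247 to 125 reads and from 5.45 to 3.12 FPKM, a log2 ratio of -0.79 (-1.12 to -0.48). Eif2ak1 (HRI, which senses heme deficiency and mitochondrial stress) was the most abundant kinase gene, at 28.7 and 22.3 FPKM, with a log2 ratio of -0.36 (-0.52 to -0.21). Eif2ak3 (PERK, the kinase of the endoplasmic reticulum) had 306 and 233 reads (log2 ratio -0.21, -0.46 to 0.04), adjusted p = 0.154 by the exact binomial test. Eif2ak4 (GCN2, which senses uncharged tRNA) had 277 and 237 reads (log2 ratio -0.04, -0.30 to 0.22), adjusted p = 0.849 by the same exact test, and its sign turned with TMM scaling (0.09). Eif2ak1 and Eif2ak2 overlap exons of other genes on the opposite strand. Against genes of like length the value was -0.59 for Eif2ak2, -0.23 for Eif2ak1, -0.01 for Eif2ak3 and 0.24 for Eif2ak4.

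eIF3, the scaffold that joins the 40S subunit to the other factors, is a large complex, and 14 of its genes were in the table. Their median log2 ratio was 0.11, with 8 above 0 and 6 below, of which Eif3b and Eif3m change sign with the scaling. Eif3i rose from 1463 to 2338 reads and from 127 to 231 FPKM, a log2 ratio of 0.86 (0.77 to 0.96). Eif3c, a core subunit, rose from 5877 to 8110 reads and from 195 to 306 FPKM, a log2 ratio of 0.65 (0.60 to 0.70). Eif3a, the largest subunit, had 17083 and 13103 reads, with a log2 ratio of -0.20 (-0.23 to -0.16). Within a library the ratio of Eif3i to Eif3a per length went from 0.404 to 0.841, and that of Eif3c to Eif3a from 0.618 to 1.11. Eif3a has a long transcript, and against genes of like length it was at 0.08, Eif3i at 0.72 and Eif3c at 0.82.

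Other eIF3 subunits stayed within 0.33 of 0. Eif3h, the most abundant at 476 and 574 FPKM, had a log2 ratio of 0.27, Eif3k 0.33, Eif3d 0.23, Eif3f 0.16, Eif3g 0.12, Eif3l 0.10, Eif3m -0.00, Eif3e -0.15 and Eif3b -0.07. The subunit eIF3j, which binds loosely, is encoded by a pair of near-identical genes in the mouse. Eif3j1 was called lower, at 120 and 41 reads (log2 ratio -1.35, 95% interval -1.91 to -0.84), but its copy Eif3j2 held most of the reads, 1744 and 1377, with a log2 ratio of -0.16 (-0.26 to -0.05). Reads of the pair had been split between the copies by estimation, and summed they gave a log2 ratio of -0.21 (-0.31 to -0.11), short of a call. The 12 subunit genes apart from this pair lay between 88.5 and 476 FPKM in control and between 88.2 and 574 FPKM after HTL.

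Of cap-binding eIF4F and its helpers, 8 of the 10 tested lay below 0, beside 7893 of all 13442 genes, and their median log2 ratio was -0.19, beside -0.14 for all genes. That median was -0.06 with TMM scaling and -0.08 against genes of like length, and Eif4a1 and Eif4g3 change sign with the scaling. Eif4e, which encodes the cap-binding protein, fell from 2369 to 1317 reads and from 45.3 to 28.6 FPKM, a log2 ratio of -0.66 (-0.76 to -0.56). Eif4g1, the scaffold, had 13323 and 8315 reads and 234 and 166 FPKM, a log2 ratio of -0.49 (-0.53 to -0.46), just inside the limit of 0.5. Eif4b, a helicase cofactor, had 14322 and 9617 reads, with a log2 ratio of -0.39 (-0.43 to -0.35). These 3 genes have long transcripts, and measured against the median of genes of like length the value was -0.38 for Eif4e, -0.21 for Eif4g1 and -0.22 for Eif4b. Further members of the group were closer to 0, with log2 ratios of -0.20 for Eif4h, -0.17 for Eif4g2 (0.21 against genes of like length), -0.07 for Eif4g3 (0.21) and 0.03 for Eif4e2, and Eif4e3 had 77 and 56 reads (log2 ratio -0.27, -0.80 to 0.24).

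The helicases of eIF4F differed by paralog. Eif4a1, the main form at 942 and 857 FPKM, had 18460 and 14792 reads, with a log2 ratio of -0.13 (-0.17 to -0.10), which turned to 0.00 with median of ratios scaling. Eif4a2 rose from 1969 to 2983 reads and from 62.0 to 120 FPKM, a log2 ratio of 0.78 (0.70 to 0.87). Exons of both Eif4a1 and Eif4a2 overlap small nucleolar RNA genes on the same strand, and those of Eif4a2 also overlap Rfc4 on the opposite strand. Within a library the ratio of Eif4a2 to Eif4a1 per length went from 0.0658 to 0.140. In reads, which moved less than FPKM here, the log2 change of that ratio was 0.92 (0.83 to 1.01). Eif4a3, a related helicase of the exon junction complex, had a log2 ratio of 0.01 (-0.07 to 0.09).

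The inhibitors of eIF4E also differed by paralog. Eif4ebp1, which encodes the best known of the proteins that hold eIF4E away from eIF4G until mTORC1 phosphorylates them, rose from 2710 to 4274 reads and from 272 to 488 FPKM, a log2 ratio of 0.84 (0.77 to 0.91). Eif4ebp2 had 1500 and 1117 reads and 81.4 and 68.8 FPKM, a log2 ratio of -0.24 (-0.35 to -0.13). Eif4ebp3 had 27 and 29 reads (log2 ratio 0.28, -0.52 to 1.10), and its exons overlap Ankhd1 on the same strand. The shuttle gene Eif4enif1, whose product carries eIF4E into the nucleus and represses mRNAs bound to it, had 2347 and 1505 reads, with a log2 ratio of -0.46 (-0.55 to -0.36). Per length, Eif4ebp1 stood at 6.01 times Eif4e in control and 17.1 times after HTL, a log2 change of 1.50 (1.39 to 1.62) in the ratio of reads. Their transcripts differ in length (981 and 4999 bases), and against genes of like length the contrast was smaller, with Eif4ebp1 at 0.70 and Eif4e at -0.38. Inhibitor and target RNA thus lay further apart in the HTL treatment library.

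After start codon choice, eIF5B joins the 60S subunit, and eIF6 keeps free 60S subunits from joining early. Eif6 had 1661 and 1934 reads, with a log2 ratio of 0.40 (0.31 to 0.50), and Eif5b had -0.12 (-0.20 to -0.04). Eif5a, which encodes the hypusine-bearing factor that helps at stalled peptide bonds, was at 1172 and 1158 FPKM (log2 ratio -0.02, -0.05 to 0.01). The outcome for Eif5a rested on the scaling: the adjusted p of the exact binomial test was 0.329 with library totals, and with TMM scaling the log2 ratio was 0.11 and the adjusted p 1.96e-10. Its paralog Eif5a2 had 108 and 109 reads (log2 ratio 0.20, -0.20 to 0.60).

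Eef1a1 was the most abundant member, and no elongation factor passed the limit of 0.5 with scaling to library totals. Eef1a1, whose product brings aminoacyl-tRNA to the ribosome, had 145430 and 145685 reads and 7874 and 8952 FPKM, a log2 ratio of 0.19 (0.18 to 0.20). The genes of its exchange complex were unequal, with 0.45 (0.41 to 0.49) for Eef1b2, 0.21 (0.18 to 0.23) for Eef1g and -0.15 (-0.20 to -0.10) for Eef1d. With upper quartile (0.54), TMM (0.58) or median of ratios scaling (0.58) Eef1b2 passed the limit for a rise. The ratio of Eef1b2 to Eef1d per length went from 1.13 to 1.70. Eef1a2, the form of muscle and mature neurons, had 24 and 22 reads (log2 ratio 0.06, -0.84 to 0.96). Eef2, the translocase, had 37145 and 39428 reads, with a log2 ratio of 0.27 (0.25 to 0.29), and the gene of the kinase that inhibits it, Eef2k, had 309 and 234 reads (log2 ratio -0.22, -0.47 to 0.03).

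In termination, Etf1 (eRF1, which reads stop codons) had 4334 and 4913 reads, with a log2 ratio of 0.37 (0.31 to 0.43), and Gspt1 (eRF3, its GTPase partner) had 3345 and 2337 reads (log2 ratio -0.33, -0.41 to -0.26). The gene pair of the release complex thus lay on opposite sides of 0, and with transcripts of like length as the reference Gspt1 was at 0.05 and Etf1 at 0.53. Gspt1 overlaps an exon of 2610020C07Rik on the opposite strand. Pabpc1, the main poly(A)-binding protein that links the mRNA tail to eIF4G, had 40063 and 27789 reads and 1356 and 1067 FPKM (log2 ratio -0.34, -0.36 to -0.32), while Pabpc4 had 0.01 (-0.05 to 0.07). Pabpc5 had 8 and 2 reads (log2 ratio -1.60, -5.09 to 0.51). Too few reads for a test were found for Pabpc2 (1 and 0), Pabpc6 (2 and 1) and Eif4e1b (4 and 3), where 3 reads, the most that a count of 0 allows, would be 0.290 CPM (counts scaled to the library total) in control and 0.330 CPM after HTL.

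**Figure D3:**
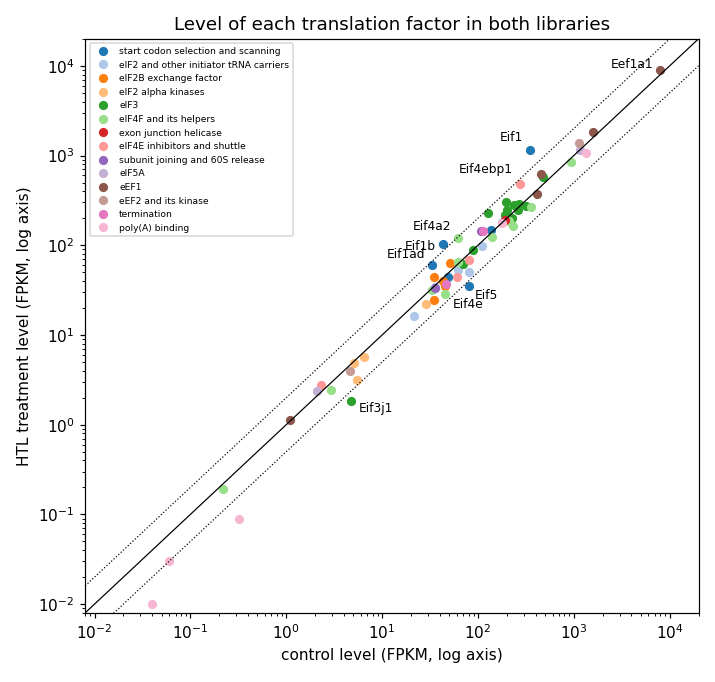
Level of each of the 69 translation factor genes in the control library (x axis) and the HTL treatment library (y axis), in FPKM on log axes, coloured by role; the solid line marks equal levels, the dotted lines a log2 ratio of FPKM of -1 and 1, and the deposited lowest value of 0.01 stands for 0 reads. Levels run from 0.04 FPKM for Pabpc2 to 7874 for Eef1a1 in control, and Eif1 and Eif1b lie above the upper dotted line.

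Several of these mRNAs carry a 5′ terminal oligopyrimidine (TOP) tract, which places their translation under mTORC1. The 10 members listed as TOP mRNAs (Eef1a1, Eef1b2, Eef1d, Eef1g, Eef2, Pabpc1, Eif3e, Eif3f, Eif3h and Eif4b) had a median log2 ratio of 0.18, with 6 above 0 and 4 below. Their values ran from -0.39 for Eif4b to 0.45 for Eef1b2. The other 56 members tested had a median of -0.06, with 23 above 0 and 33 below. The 10 members whose sign changed with the scaling are all among these 56, so more of the 56 lay above 0 with other scalings. With library totals all 10 met the p limit, 6 higher and 4 lower, as did 63.6% of the members and 38.6% of all genes tested. None passed 0.5 with library totals, whereas Eef1b2 did with the other 3 scalings. With TMM scaling Eef1d and Eif3e, both among the 4 lower, stood at -0.02 each.

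Transcript length moved with the log2 ratio. Across the 13442 genes tested, length and log2 ratio had a Spearman's rho of -0.18, and across the 66 members it was -0.50; genes share the same pair of libraries and are not independent replicates. With all genes split by length into 10 bins of equal size, the median log2 ratio was 0.14 for the shortest transcripts and -0.38 for the longest. Measured against the median of their own bin, Eif1 was at 1.73, Eif1b at 1.12, Eif5 at -1.002 and Eif3j1 at -1.24, and all 4 kept their calls, while the members' median went to 0.06. In this measure 15 of the 66 members changed sign, which were Eef2k, Eif1a, Eif1ax, Eif2ak4, Eif2d, Eif2s3x, Eif3a, Eif3b, Eif3g, Eif3m, Eif4g2, Eif4g3, Eif5a, Eif5b and Gspt1.

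**Figure D4:**
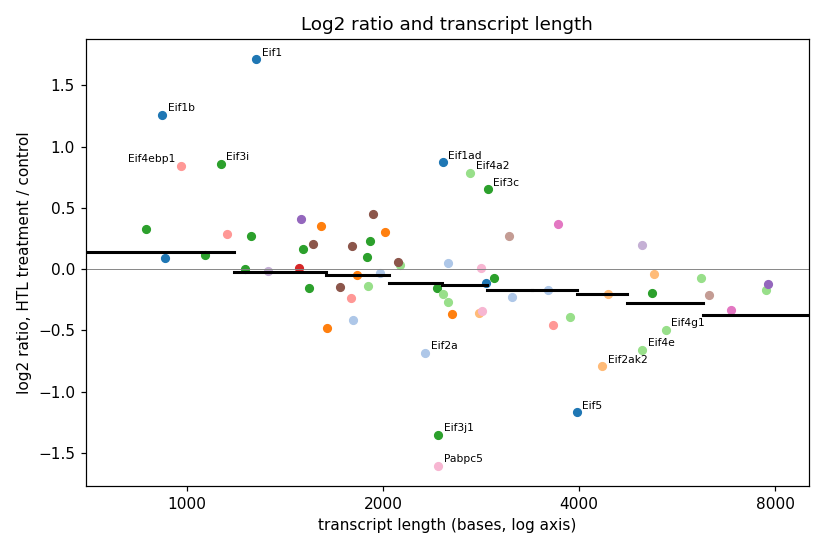
Log2 ratio (HTL treatment over control, y axis) against transcript length in bases (x axis, log) for each of the 66 translation factor genes tested, coloured by role as in the plot of log2 ratios by group. Black bars are the medians of all genes tested in each of 10 bins of transcript length and fall from 0.14 to -0.38; Eif1 and Eif1b lie above them and Eif5 and Eif3j1 below.

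The sequences upstream of the 3 start codon genes that were called are shown for their motifs, as the 150 bases before the RefSeq start in GRCm38.p6, plus strand, with the motif in capitals where there is one.
Eif1, chr11:100319799-100319948: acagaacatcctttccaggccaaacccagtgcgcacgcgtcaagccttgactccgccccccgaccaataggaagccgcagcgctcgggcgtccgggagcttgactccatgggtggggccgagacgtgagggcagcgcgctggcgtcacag
Eif1b, chr9:120492456-120492605: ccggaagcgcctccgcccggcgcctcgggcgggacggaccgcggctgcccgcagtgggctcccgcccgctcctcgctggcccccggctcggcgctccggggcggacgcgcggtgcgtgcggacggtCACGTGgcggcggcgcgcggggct
Eif5, chr12:111537951-111538100: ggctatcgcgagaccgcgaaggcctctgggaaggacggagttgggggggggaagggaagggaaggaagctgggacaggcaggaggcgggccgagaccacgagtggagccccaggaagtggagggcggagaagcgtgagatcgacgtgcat
Windows from 250 bases before to 50 after the start were searched on both strands. There were 32851 windows of all genes and 65 windows of the 50 members that matched by gene ID and symbol. Members without a match were not searched. The E-box CACGTG, the capitals in Eif1b, was in 7.15% of all windows and in 14 of the 65 windows, those of 12 members, among them Eef2, Eif3a, Eif4a1, Eif4e, Eif4g1 and Eif5a. Members with the E-box included genes that stood higher (Eif1b, Eef2) and lower (Eif4e, Eif4g1). The CARE core TTGCATCA, a motif bound by ATF4, was in 0.895% of all windows and in those of 0 members, and ERSE, an element of the unfolded protein response, in 0.119% and 0 members. A run of 4 pyrimidines from the annotated start was found in 6.86% of all windows and in 5 members, Eef1a1, Eif2ak4, Eif2b5, Eif2s3x and Eif3f, of which Eef1a1 and Eif3f are among the listed TOP genes. A match describes letters in the window and no more.

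Around these factors, 46 of 47 other genes of the translation pathway were in the table and tested. With library totals their median log2 ratio was -0.21, with 1 called higher and 3 lower, against 2.81% and 7.98% of all genes tested. At the smaller size 3 had risen and 12 had fallen, against 8.9% and 18.2%. The other scalings were not counted for this list. Their upward shift of log2 ratios would take Gigyf2 and Mcts2 short of the call limit, with fewer genes fallen and more risen. Ppp1r15a (GADD34), which directs the phosphatase that removes the phosphate from eIF2 alpha, was the call upward, from 469 to 1962 reads and from 19.3 to 91.6 FPKM, a log2 ratio of 2.25 (2.10 to 2.40). Impact, whose product restrains GCN2, had 718 and 271 reads (log2 ratio -1.22, -1.43 to -1.02). Gigyf2, which represses translation together with an eIF4E relative, had 2414 and 997 reads (log2 ratio -1.09, -1.20 to -0.98). Mcts2, a near-identical retrocopy of the recycling and reinitiation factor gene Mcts1 whose reads are therefore uncertain, had 349 and 149 reads (log2 ratio -1.04, -1.33 to -0.76). Mcts1 itself had 135 and 99 reads (log2 ratio -0.26, -0.65 to 0.12), and the pair was not summed. The kinase gene Mtor was at -0.24 and its partner Rptor, with 1349 and 819 reads, at -0.53. Both have long transcripts (8612 and 7046 bases), in the length bin whose median over all genes was -0.38. Eif1 and Ppp1r15a were thus the largest rises with a mean of at least 100 reads in their respective lists.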

How the data were processed

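RNA of 1 control and 1 HTL treatment culture was sequenced, and groups were taken from the sample titles. As the study's methods describe, filtered reads were mapped and expression was normalized to RPKM with RSEM, written there as RESM. The authors deposited estimated counts per gene, which are not normalized. The build in the submitters' processing notes is mm9, and the mapper, annotation and use of strand are not given in the sources used here. The authors also deposited FPKM values, scaled to transcript length and library size, which were used as levels, and a log2 ratio with a p-value and FDR, which were not used.

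Estimated counts were rounded (13 members had fractional reads), to totals of 10350646 for control and 9102057 for HTL treatment. The 13442 of 16803 genes whose reads summed to 10 or more were compared with the two-sided exact binomial test against the library totals (scipy 1.17.1), with Benjamini-Hochberg adjustment. For log2 ratios 0.5 read, scaled to the totals, was added per library. The 95% intervals are exact Clopper-Pearson intervals of counting error, and reads counted without molecular identifiers need not be separate molecules. Intervals of within-library ratios are Wald intervals. The scripts were tested on simulated data first. Neither edgeR's quasi-likelihood model nor that of DESeq2 can be fitted to unreplicated data, so edgeR 4.0.16 (exact test and TMM, R 4.3.3) and DESeq2 1.42.0 (size factors) served as alternatives.

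Members called, the 5 largest rises and 5 largest falls with a mean of at least 100 reads, the most abundant member of each of the 14 role lists, all eIF2 alpha kinases and Eif4ebp genes and untested members (30 in all) were named by rule, as were the called genes and the largest rise and fall of the pathway list. Other members are named by role, after their values were seen. The members, lists and motifs were chosen with earlier results of these data known, and the TOP, role and pathway lists were written from background knowledge. Positions are from GENCODE M1 (NCBIM37, 66 members matched); 12 members overlap an exon on the opposite strand and 6 on the same strand. Promoters are from RefSeq (GRCm38.p6).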

Additional observations from a re-analysis of the deposited data

How the results depend on the processing

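With 1 library per condition, no replicate could be left out and no spread between cultures could be measured. No paired analysis was possible because control and treatment were a single library each. The count of members called, 2 higher and 2 lower, became 1 and 1 with close copies summed, since Eif1 with Eif1b then counts once and the Eif3j pair no longer passes. It became 0 and 0 when edgeR's exact test assumed a biological coefficient of variation of 0.2 or 0.4, which by construction asks for larger differences, and 7 and 5 at an absolute log2 ratio of at least 0.5. At 0.2 the adjusted p by edgeR's exact test was 0.00333 for Eif1, 0.0601 for Eif1b, 0.0814 for Eif5 and 0.0871 for Eif3j1, and at 0.4 it was 1 for each, while at 0.1 all 4 passed. At 0.1, 5 members said to have risen or fallen missed the p limit by edgeR's exact test, Eif2ak2 (adjusted p 0.0127), Eif2a (0.00797), Eif3c (0.00970), Eif4a2 (0.00165) and Eif4e (0.01002). The median log2 ratio of members ran from -0.07 without a read minimum to 0.09 with median of ratios scaling, beside medians of all genes of -0.16 and -0.00.

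Other scalings add nearly the same amount to every log2 ratio, and centring on length adds an amount set by the transcript. Signs therefore changed, with length centring for 15 of the 66 members tested, Gspt1 (-0.33 to 0.05) among them. Eif5a (-0.02) went to 0.11 with TMM, 0.12 with median of ratios, 0.074 with upper quartile scaling and 0.00030 centred on 10 bins of length. Eif2ak4 (-0.04) went to 0.091, 0.097, 0.054 and 0.24 in that order, and Eif4a1 (-0.13) to 0.0023 with median of ratios. Of the values of the 27 tested members named by the rule, 302 kept direction and side of the threshold. Another 9 reversed, 9 were weaker and 3 stronger, and the 3 are Eif1ad, called higher with TMM, median of ratios and length centring. Settings that change only the read minimum or the assumed coefficient of variation leave each log2 ratio as it was. No direction could reverse there, so the 302 overstate how far the settings were a check. Eif3j1, with 120 and 41 reads, is the called member that depth limits most.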

Other observations

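Several translation factors are encoded by paralogs whose proteins serve nearly the same role, so the sum of their reads was also compared. Eif4a1 and Eif4a2 together had 20429 reads in control and 17775 after HTL, a log2 ratio of -0.02 (95% interval -0.04 to 0.01), although Eif4a2 alone rose by 0.78. Eif1a and Eif1ax summed to 2735 and 2383 reads, -0.01 (-0.09 to 0.07), and Eif5a with Eif5a2 to 16165 and 14040 reads, -0.02 (-0.05 to 0.01). The X- and Y-linked genes of the gamma subunit of eIF2, Eif2s3x and Eif2s3y, summed to 4544 and 3507 reads, -0.19 (-0.25 to -0.12). The Pabpc genes summed to 45207 and 32334 reads, -0.30 (-0.32 to -0.28), set mostly by Pabpc1. Of these sums, Eif1 with Eif1b was the one past the call limit of 1. Each sum weights the paralogs by their reads, and values near 0 change sign with the scaling.

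Eef1a1 and Eif1a share their best protein match with a listed copy, Gm6548 (59 and 52 reads) and Gm8300 (0 and 1 reads).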
